A study of Mus musculus with 22 samples.

Results

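The comparison described here set the liver of adiponectin-knockout mice at zeitgeber time 6 (ZT6, 6 h after lights on) against the liver at ZT2, 4 h earlier in the same light phase. It used every array labelled with those times, 3 at ZT6 and 4 at ZT2, of 22 arrays in the series, and took the difference of the group means for each of 22206 features. All mice were males of 3 to 8 months that carried the global adiponectin deletion B6;129-Adipoqtm1Chan/J on a C57BL/6J background, lived on 12 h of light at about 300 lux and 12 h of dark at 22 ± 2 °C, and had chow and water at all times. ZT2 and ZT6 therefore share the genotype, the sex and the housing and differ by the hour of death alone, as far as the labels say. Wild-type mice were not analysed here, so no value below is an effect of the deletion. Each array was taken as the liver of 1 mouse, and the arrays of a time carry the letters a to d.

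Mice rest in the light phase, and both times compared here fall in it. The activators BMAL1 (encoded by Arntl), CLOCK and NPAS2 bind E-box sequences and switch on Per, Cry and Nr1d genes, whose products then act back on them. The nuclear receptors REV-ERB alpha and beta (Nr1d1, Nr1d2) silence Arntl, Npas2, Clock, Nfil3 and Cry1 through elements that the ROR receptors also bind, and DBP and NFIL3 compete as activator and repressor at D-box sequences.

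Array medians lay between 5.28 and 5.36 and lower quartiles between 3.76 and 3.87 on the deposited log2 scale. The data hold no detection calls, so levels near the lower quartile cannot be told from background. Correlations between the 7 arrays ran from 0.981 to 0.99 over all features, and 0 pairs were identical. The Adipoq feature read 3.31 to 3.86 at ZT2 and 3.58 to 3.65 at ZT6, near the lower quartile, and with no wild-type liver beside it this does not check the deletion. Of the ZT6 arrays 2 stood apart in Tff3, a trefoil peptide of goblet cells: it read 10.35 in ZT6b and 11.6 in ZT6c, but 2.49 in ZT6a and 3.57 to 4.64 in the ZT2 livers. The same feature was high in ZT14b, ZT14d and ZT22a and lay between 2.31 and 4.73 in the other 17 arrays of the series. The difference of Tff3 itself was 4.04 with adjusted p = 0.561. Results are given below with all arrays and, for the genes described with their values whose call differs, singly or as a range, without these 5 arrays, which leaves ZT6a as the only ZT6 liver, assumed to vary like the livers of the other times.

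At ZT6, 87 of 22206 features (0.392%) differed from ZT2 with adjusted p under 0.05 in limma, 39 of them higher (0.176%) and 48 lower (0.216%). These features named 78 genes, 36 higher and 42 lower, and 9 features had no symbol. At an unadjusted p under 0.05 there were 2279. In each of the 87 the 3 ZT6 values lay wholly above or below the 4 ZT2 values, a separation that 1710 of all features (7.7%) showed. The median size of a called difference was 1.29, a 2.45-fold change, and the smallest was 0.82, or 1.76-fold. A total of 282 features differed at least 2-fold, of which 26.2% were called, and the median difference of all features was 0.0. In whole liver, fewer cells of a type and less RNA per cell cannot be told apart, which holds for every gene named here.

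**Figure D1:**
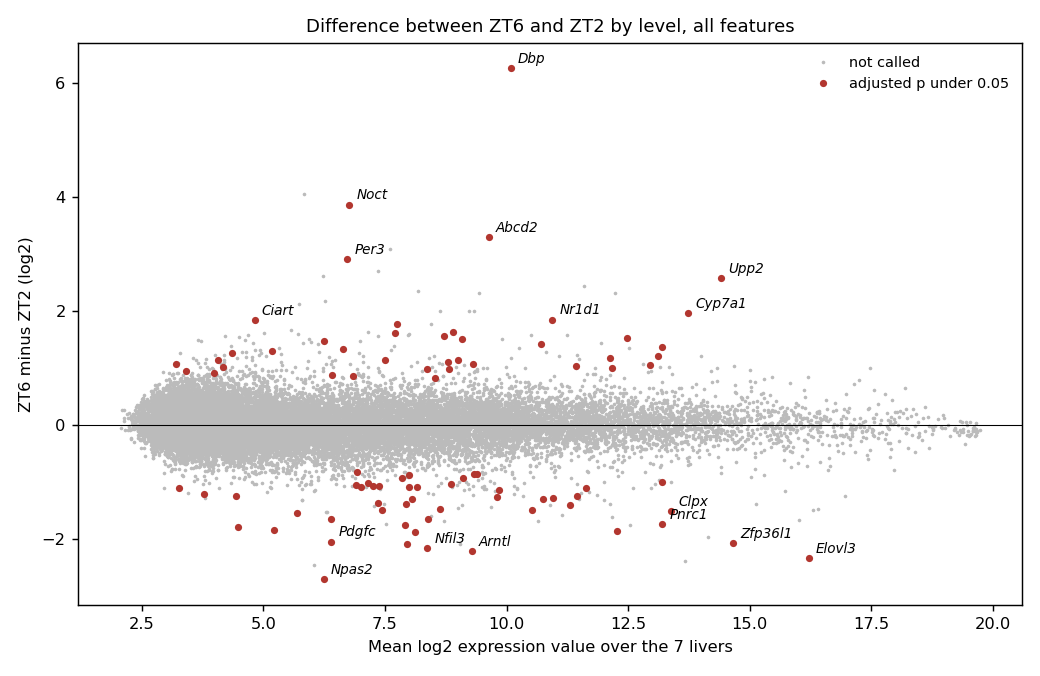
Difference between ZT6 and ZT2 (log2, vertical axis) against the mean log2 expression value over the 7 livers (horizontal axis), 1 point per feature. Red points are the 87 called features and grey points the others. Dbp stands alone at 6.26, and called features of both signs lie mostly at middle to high levels.

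Calls were more frequent among the brighter features: 75 of them (0.675% of the features above the median level) against 12 (0.108%) below it. Of the 87, 10 had both group means under the array median (Slc34a2, Schip1, Stk32a, Rims2, Srgap1, Krt72, Olfr525 and 3 vomeronasal receptor features), and these levels border on background. Without the 5 arrays high in Tff3 the count was 50, of which 22 were among the 87, and leaving out ZT6b and ZT6c alone gave 46, of which 19 were. Leaving out single livers gave 39 calls without ZT2a, 39 without ZT2b, 53 without ZT2c, 85 without ZT2d, 117 without ZT6a, 29 without ZT6b and 76 without ZT6c. A set of 16 features, 15 with a name, was called in the full set and in all 7 of these omissions: Dbp, Per3, Upp2, Wee1, Nr1d2, Npas2, Elovl3, Arntl, Nfil3, Zfp36l1, Pdgfc, Pnrc1, Clpx, Rnd1 and Pnp.

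Of the 3 genes of the positive arm of the clock, 2 were called lower at ZT6, beside 0.216% of all features. Npas2, the paralog of CLOCK and alternative partner of BMAL1, read 7.33, 7.81, 8.06 and 6.4 in the ZT2 livers and 4.46, 4.21 and 5.4 in the ZT6 livers. At ZT6 2 of the 3 values lie between the lower quartile and the median of the arrays, so the low side is close to background. Npas2 fell by 2.71 (SE 0.36; adjusted p = 0.000413). Arntl, which encodes BMAL1, read 10.01, 10.05, 10.77 and 10.1 at ZT2 and 7.02, 9.01 and 8.01 at ZT6. No ZT6 liver reached the ZT2 range, and ZT6a was the lowest and ZT6b the highest of the 3. The difference of Arntl was -2.22 (SE 0.32; adjusted p = 0.000664), a 4.66-fold lower mean. Clock read 13.87 to 14.27 at ZT2 and 12.89 to 13.72 at ZT6, also without overlap, but its difference of -0.69 did not pass the test (adjusted p = 0.191). Both calls, of Npas2 and Arntl, held in every omission of a single liver and without the 5 arrays high in Tff3 (adjusted p = 0.0164 and 0.000133). Over all alternatives the adjusted p of Npas2 ran from 3.17e-05 to 0.0254 and that of Arntl from 2.36e-05 to 0.0694, the highest being from the 7 arrays alone.

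Of the 4 measured D-box factors, Dbp was called higher and Nfil3 lower, beside 0.176% and 0.216% of all features. Dbp, the activator, had the largest difference of any feature in the comparison. Its values were 6.91, 8.43, 6.72 and 7.56 at ZT2 and 14.7, 14.09 and 12.2 at ZT6. The lowest ZT6 liver, ZT6c, was still far above the highest ZT2 liver, and the difference was 6.26 (SE 0.42; adjusted p = 3.35e-09), a 76.6-fold higher mean. Nfil3, the repressor that competes for the same sequence, read 9.4, 9.29, 9.54 and 8.96 at ZT2 and 7.15, 6.92 and 7.34 at ZT6. It fell by 2.16 (SE 0.23; adjusted p = 1.28e-05), with less spread within the groups than Dbp had. Tef, a relative of Dbp, read 3.47 to 3.88 at ZT2, levels near background, and 6.22, 4.35 and 4.84 at ZT6. Of the ZT6 livers only ZT6a lay above the array median. The difference of Tef, 1.38, missed the threshold (adjusted p = 0.0512). That call depended on the setting: adjusted p was 0.0368 with a trend and robust prior, 0.0197 without ZT6b, and 0.000899 without the 5 arrays, within a range of 0.000899 to 0.313. Hlf, the remaining PAR bZIP gene, differed by -0.14 (adjusted p = 0.891).

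The repressor arm held genes of both signs. Per3 read 5.67, 5.87, 5.25 and 5.13 at ZT2 and 9.83, 7.89 and 7.43 at ZT6. Each ZT6 liver exceeded each ZT2 liver, with ZT6a highest, and the difference was 2.90 (SE 0.39; adjusted p = 0.000512), 7.48-fold. Ciart, whose product CHRONO represses BMAL1 and CLOCK, read 3.74, 3.94, 4.66 and 3.81 at ZT2, levels near background, and 7.06, 5.83 and 4.72 at ZT6. ZT6c lay just above ZT2c, and the difference was 1.83 (SE 0.33; adjusted p = 0.0107). Bhlhe40, which encodes the E-box repressor DEC1, read 11.51 to 12.09 at ZT2 and 13.77, 13.78 and 12.5 at ZT6, a difference of 1.53 (SE 0.32; adjusted p = 0.0276). Cry1, the late repressor, moved the other way: it read 7.47, 8.21, 8.18 and 7.52 at ZT2 and 6.97, 6.56 and 6.77 at ZT6. Cry1 fell by 1.08 (SE 0.23; adjusted p = 0.0303).

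The other repressor genes did not pass the test. Per1 differed by 1.61 (adjusted p = 0.0846), with no overlap between the groups but with ZT2 levels of 3.97 to 4.76 near background. Per2 differed by 0.69 (adjusted p = 0.494) and Cry2 by 0.41 (adjusted p = 0.521), both with overlapping groups. Bhlhe41 read 8.08 in ZT6a but 5.02 and 5.56 in the other ZT6 livers, against 4.56 to 5.86 at ZT2 (difference 1.01, adjusted p = 0.464). Of the calls in this arm, that of Ciart was lost without ZT6b, that of Bhlhe40 without ZT2a, ZT2b, ZT2d, ZT6a or ZT6b, and that of Cry1 without ZT2b, ZT2c, ZT6b or ZT6c. The adjusted p over the alternatives ran to 0.041 for Per3, 0.247 for Ciart, 0.176 for Bhlhe40 and 0.357 for Cry1. Without the 5 arrays high in Tff3, Per3 and Ciart stayed called (adjusted p = 1.25e-05 and 3.18e-05), Per1 and Bhlhe41 became called (0.0422 and 0.00806), and Bhlhe40 and Cry1 were not (0.0608 and 0.294). Over all alternatives the adjusted p of Per1 spanned 0.0422 to 0.23 and that of Bhlhe41 0.00465 to 0.958.

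The REV-ERB receptors were higher at ZT6. Nr1d1 read 10.22, 9.86, 9.92 and 10.6 at ZT2 and 11.65, 12.43 and 11.91 at ZT6. All ZT6 livers lay above the ZT2 range by at least 1 unit, and the difference was 1.85 (SE 0.32; adjusted p = 0.00681). Nr1d2 read 10.3, 9.96, 9.9 and 10.19 at ZT2 and 11.63, 11.51 and 11.4 at ZT6, a difference of 1.43 (SE 0.24; adjusted p = 0.00607). Rora, the activating counterpart, differed by -0.24 (adjusted p = 0.753). The call of Nr1d1 was lost without ZT6b and without the 5 arrays high in Tff3 (adjusted p = 0.218, in a range of 0.00268 to 0.218), although ZT6a alone still lay 1.5 above the ZT2 mean. Nr1d2 stayed called without the 5 arrays (adjusted p = 0.0343) but not with ZT6b and ZT6c alone left out (0.0911, in a range of 0.00127 to 0.0911). In all, 8 of 14 measured core clock genes were called, 5 higher and 3 lower. Over all features the shares were 0.392% called, 0.176% higher and 0.216% lower.

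**Figure D2:**
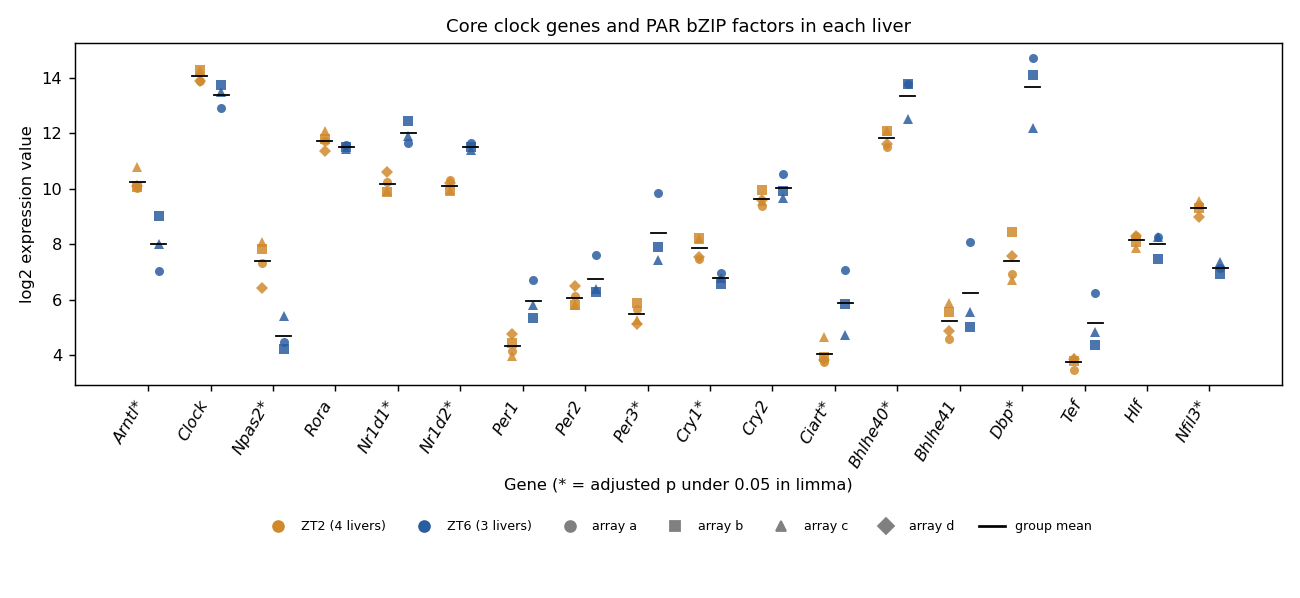
Log2 expression value (vertical axis) of the core clock genes and PAR bZIP factors in each ZT2 liver (orange, 4) and each ZT6 liver (blue, 3), with symbols for the array letter and a bar for each group mean. Dbp, Per3, Nr1d1 and Nr1d2 sit higher at ZT6 and Npas2, Arntl, Nfil3 and Cry1 lower, and an asterisk marks a call.

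Promoters of called genes were searched for the 3 sequences named above, because these factors moved in the same 4 h. RefSeq promoters on build GRCm38.p6, from 250 bases before a gene's start to 50 after it, were used for 27 of the higher and 34 of the lower genes. The promoters of a single chromosome were left out of the search and of all counts below, so its called genes are not among these. Both strands were read, and no printed matches overlap each other. The E-box CACGTG was in 4 of the 27 and in 4 of the 34, against 7.15% of 32851 promoters and 9.26% of 15691 measured genes. The D-box TTANGTAA was in 2 of the 27 and 2 of the 34, against 2.32% of promoters and 2.42% of genes. The element ANTNGGTCA, bound by REV-ERB and ROR, was in 0 of the 27 and in 4 of the 34, against 2.24% and 2.29%. A match is a string of letters, not a measured binding site. The stretches with the most matches of the E-box and the D-box among the higher genes, and those with the receptor element among the lower genes, are printed with the motif in capitals.
Ciart (chr3:95882242-95882369, minus strand, 3 E-boxes, the first 116 bases before the start): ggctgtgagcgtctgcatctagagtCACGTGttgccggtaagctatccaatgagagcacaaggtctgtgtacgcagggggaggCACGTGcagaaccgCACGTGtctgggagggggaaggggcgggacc
Per3 (chr4:151044791-151044895, minus strand, 2 D-boxes): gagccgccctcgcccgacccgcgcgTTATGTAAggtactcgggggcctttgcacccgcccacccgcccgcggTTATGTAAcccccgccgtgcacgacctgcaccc
Arntl (chr7:113207529-113207557, plus strand, receptor element just after the start): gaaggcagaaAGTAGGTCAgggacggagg
Nfil3 (chr13:52981018-52981076, minus strand, receptor element read on the other strand): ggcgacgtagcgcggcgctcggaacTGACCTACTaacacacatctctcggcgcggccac
Slc45a3 (chr1:131970466-131970524, plus strand, receptor element): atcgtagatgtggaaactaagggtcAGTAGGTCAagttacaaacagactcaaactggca
Tjp3 (chr10:81291758-81291816, minus strand, receptor element): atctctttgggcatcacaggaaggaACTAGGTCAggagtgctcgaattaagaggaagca

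Outputs of these factors were then followed through 2 gene lists. Of 13 measured genes known to be driven through E-boxes, 6 were higher and 0 lower, beside 0.176% and 0.216% of all features, with a median difference of 1.58 against 0.0 over all features. They were Wee1 and 5 genes already described, Dbp, Per3, Nr1d1, Nr1d2 and Ciart. Wee1, the kinase that holds CDK1 inactive before mitosis, read 6.84 to 7.19 at ZT2 and 8.85, 8.74 and 8.28 at ZT6, a difference of 1.61 (SE 0.23; adjusted p = 0.000592). Usp2, a ubiquitin protease, read 8.14 in ZT6a but 4.78 and 3.87 in ZT6b and ZT6c, and 3.5 to 4.62 at ZT2. Its difference of 1.58 was not called (adjusted p = 0.305), and without the 5 arrays it was 4.12 (adjusted p = 1.19e-06, range 1.19e-06 to 0.776). Without them the list held 9 calls.

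Of 11 measured genes known as REV-ERB and ROR targets, 6 were lower and 0 higher, beside 0.216% and 0.176% of all features, with a median of -1.08. Beside Arntl, Npas2, Nfil3 and Cry1 these were Elovl3 and Insig2. Elovl3, which lengthens saturated fatty acids, read 17.28, 17.42, 17.45 and 16.69 at ZT2 and 14.85, 14.89 and 14.88 at ZT6. The ZT6 livers were nearly equal and far under the ZT2 range, and Elovl3 fell by 2.34 (SE 0.37; adjusted p = 0.00266). Insig2, the membrane protein that keeps SCAP and SREBP in the endoplasmic reticulum, read 11.65 to 12.42 at ZT2 and 10.51, 10.56 and 11.13 at ZT6, and fell by 1.24 (SE 0.24; adjusted p = 0.0173). The list held 3 calls without the 5 arrays, and neither Elovl3 (adjusted p = 0.0672, range 0.00226 to 0.0974) nor Insig2 (0.0564, range 0.00549 to 0.126) was among them. Insig2 was also lost without ZT2c, ZT6a or ZT6b. Cyp8b1, the sterol 12-hydroxylase of bile acid synthesis, differed by -1.04 without overlap but with adjusted p = 0.464, and Gpam, E2f8 and Apoc3 were not called.

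A list of genes driven by the clock or by feeding held 3 calls of 10, beside 0.392% of all features. Noct, which encodes nocturnin, a phosphatase of NADP(H), read 4.81, 5.46, 5.26 and 4.92 at ZT2 and 6.93, 11.07 and 8.92 at ZT6. Every ZT6 liver was higher, but the 3 spread over more than 4 units, and the difference was 3.86 (SE 0.84; adjusted p = 0.0374). Its level was highest in the 2 livers high in Tff3, and without the 5 arrays its adjusted p was 0.0805 (range 0.00955 to 0.621), and the part of these livers in the result was not tested. Slc45a3, a solute carrier, read 8.61 to 9.11 at ZT2 and 7.06, 7.16 and 6.93 at ZT6, and fell by 1.88 (SE 0.38; adjusted p = 0.0222). Elovl3 was the other call, while Rgs16 (2.60, adjusted p = 0.122), Rnf125 (-1.49, 0.0512), Coq10b (0.95, 0.212) and Lonrf3 (-1.53, 0.101) did not pass. With the 5 arrays high in Tff3 left out the list held 4 calls, of other genes: Usp2, Coq10b (adjusted p = 0.013, range 0.013 to 0.46), Rnf125 (0.0205, range 0.0205 to 0.178) and Rgs16 (0.0442, range 0.0442 to 0.3). Slc45a3 then had adjusted p = 0.0867 (range 0.00588 to 0.209). The call of Noct was lost in 6 of 7 omissions, all but that of ZT6a, and that of Slc45a3 without ZT2b, ZT2c, ZT6b or ZT6c.

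Called genes of metabolism with the largest positive differences were Abcd2, Upp2 and Cyp7a1. Some uncalled genes had differences as large, such as Cyp2b10 (2.69, adjusted p = 0.277) and Cidec (2.17, adjusted p = 0.365). Upp2, the liver uridine phosphorylase, read 12.83, 12.55, 13.62 and 14.22 at ZT2 and 16.15, 15.77 and 15.7 at ZT6. The ZT6 livers differed little and all exceeded the highest ZT2 liver, with a difference of 2.57 (SE 0.36; adjusted p = 0.000592), 5.93-fold, and the call held in every omission. Cyp7a1, whose product catalyses the limiting first step from cholesterol to bile acids, read 12.2, 12.34, 13.47 and 13.57 at ZT2 and 15.24, 14.7 and 14.62 at ZT6. Its difference was 1.96 (SE 0.40; adjusted p = 0.0231), 3.89-fold. Cyp7a1 was the only call among 12 measured genes of that pathway, whose median was -0.28, beside 0.392% of all features called. Abcd2, a peroxisomal transporter of very long-chain acyl-CoA, read 7.12, 7.94, 8.86 and 8.99 at ZT2 and 9.4, 12.71 and 12.45 at ZT6. The groups did not overlap, but ZT6a exceeded ZT2d by only a little, and the difference of 3.29 (SE 0.63; adjusted p = 0.0173) was not evenly spread over the ZT6 livers: ZT6a lay 1.17 above the ZT2 mean and the mean of ZT6b and ZT6c, the livers high in Tff3, 4.35. With them and the other 3 such arrays left out, Abcd2 had adjusted p = 0.501 (range 0.000335 to 0.648). Cyp7a1 was lost without ZT2a, ZT2b, ZT6a or ZT6b and without the 5 arrays (adjusted p = 0.0694, range 0.0167 to 0.126), and Abcd2 without ZT2a, ZT2b, ZT6b or ZT6c.

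Other metabolic calls were smaller. The counts of calls in lists given here stand beside 0.392% of all features called. Acacb, the acetyl-CoA carboxylase whose malonyl-CoA restrains entry of fatty acids into mitochondria, read 8.16 to 8.91 at ZT2 and 7.43, 7.53 and 6.45 at ZT6, and fell by 1.39 (SE 0.28; adjusted p = 0.0225). It was the only call among 14 measured genes of fatty acid synthesis, of which 11 had a positive difference, with a list median of 0.56. Elovl6 (1.06, adjusted p = 0.259) and Fads2 (0.99, 0.236), an elongase and a desaturase, lay higher at ZT6 without overlap and without a call. Stbd1, a protein that tethers glycogen to membranes, differed by 1.14 (SE 0.25; adjusted p = 0.0406), the only call among 12 genes of glycogen. Cyp4a32, of the fatty acid omega-hydroxylase family, fell by 1.86 (SE 0.41; adjusted p = 0.0374), but near-identical relatives such as Cyp4a10 (-0.84, adjusted p = 0.63) make its feature uncertain. The calls of Acacb (lost without ZT2c, ZT2d or ZT6c), Stbd1 (lost in 6 omissions, all but ZT2d) and Cyp4a32 (lost in 6, all but ZT6c) each depended on single livers. Their adjusted p over the alternatives ran from 0.0101 to 0.277, from 0.0253 to 0.274 and from 0.0291 to 0.181, and without the 5 arrays it was 0.27, 0.164 and 0.0362.

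The genes of largest fall outside the clock included regulators of signalling and of RNA. Zfp36l1, which binds AU-rich mRNAs and promotes their decay, read 16.31, 16.13, 15.16 and 14.61 at ZT2 and 12.85, 14.04 and 13.53 at ZT6. Zfp36l1 fell by 2.08 (SE 0.31; adjusted p = 0.000936), and no liver of ZT6 reached the lowest of ZT2. Pnrc1, a coactivator of nuclear receptors, read 13.57 to 14.26 at ZT2 and 12.14, 12.21 and 12.27 at ZT6, a difference of -1.75 (SE 0.20; adjusted p = 7.08e-05), the smallest adjusted p among named calls after those of Dbp and Nfil3. Pdgfc, a growth factor, read 7.0 to 7.5 at ZT2 and 5.97, 4.86 and 4.85 at ZT6, a difference of -2.05 (SE 0.28; adjusted p = 0.000592). Without the 5 arrays Zfp36l1 and Pnrc1 stayed called (adjusted p = 0.00584, range 5.38e-05 to 0.106, and 0.0207, range 2.28e-06 to 0.0207), and Pdgfc did not (0.134, range 0.000101 to 0.174).

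Grk5, a kinase of G protein-coupled receptors, fell by 2.09 (SE 0.42; adjusted p = 0.0212). Its ZT2 values of 8.13 to 9.42 and ZT6 values of 6.64, 6.13 and 7.5 did not overlap. Rfxank, a subunit of the RFX complex at class II MHC promoters, fell by 1.76 (SE 0.35; adjusted p = 0.0212), from 7.72 to 9.1 at ZT2 to 6.31, 6.75 and 7.68 at ZT6, where ZT6c lay just under ZT2d. Slc34a2, a sodium-phosphate cotransporter, fell by 1.79 (adjusted p = 0.0369) at levels close to background, 5.03 to 5.52 against 2.97 to 3.75. Stat5b, the transcription factor of growth hormone signalling, fell by 0.89 (SE 0.19; adjusted p = 0.0298) from 8.08 to 8.65 down to 7.34 to 7.59. It was the only call among 18 genes of the insulin and IGF axis, beside 0.392% of all features. Each of these calls was lost in 5 or 6 of the 7 omissions: Grk5 and Rfxank without ZT2a, ZT2b, ZT2c, ZT6a or ZT6b, Slc34a2 in all but that of ZT6a, and Stat5b in all but those of ZT2b and ZT6a. The highest adjusted p over the alternatives was 0.168, 0.161, 0.356 and 0.297. Grk5 and Rfxank stayed called with the 5 arrays high in Tff3 left out (adjusted p = 0.0343 and 0.0212), while Slc34a2 and Stat5b did not (0.201 and 0.291). Their lowest adjusted p over the alternatives was 0.0132, 0.00361, 0.0243 and 0.0139.

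The genes of largest rise included 3 more. Ank3, which encodes the membrane adaptor ankyrin-G, read 6.73 to 7.23 at ZT2 and 8.43, 9.31 and 8.52 at ZT6, a difference of 1.78 (SE 0.30; adjusted p = 0.00627). Rnf145, a ubiquitin ligase of the endoplasmic reticulum that acts on cholesterol synthesis, read 8.06 to 8.32 at ZT2 and 9.38, 10.49 and 9.62 at ZT6, a difference of 1.64 (SE 0.37; adjusted p = 0.0447). Gprin3 differed by 1.56 (SE 0.30; adjusted p = 0.0173), with 1 ZT2 liver, ZT2c at 9.01, close to ZT6a at 9.2 and the other ZT2 livers at 7.62 to 7.82. The call was lost for Ank3 without ZT6b, for Gprin3 without ZT2a, ZT2b, ZT6b or ZT6c, and for Rnf145 in 6 omissions, all but that of ZT6a. None of the 3 was called without the 5 arrays (adjusted p = 0.0695, 0.338 and 0.108), with ranges of 0.0021 to 0.192, 0.00162 to 0.343 and 0.0355 to 0.441.

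**Figure D3:**
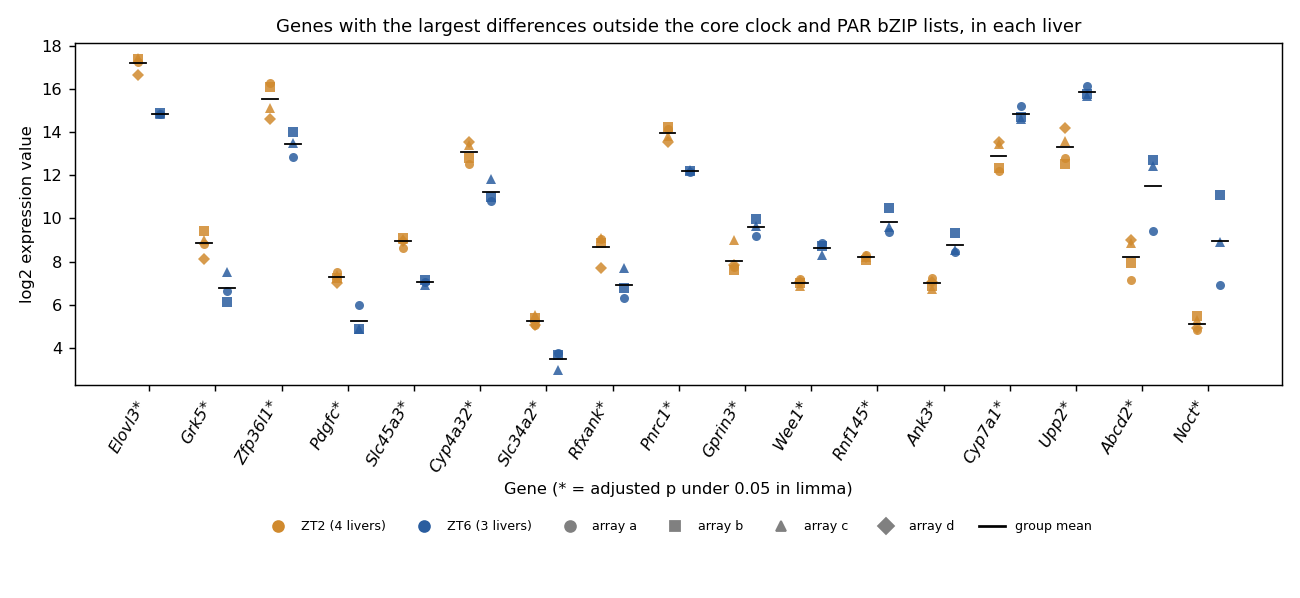
Log2 expression value (vertical axis) in each ZT2 liver (orange, 4) and each ZT6 liver (blue, 3) of the genes with the largest differences that are neither core clock nor PAR bZIP genes, with a bar for each group mean. Elovl3 at ZT6 is nearly 1 point, while the ZT6 values of Noct and Abcd2 spread widely, with the array ZT6a lowest of the 3.

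Called genes outside these groups were chosen for mention after their values were seen. Clpx, the unfoldase of a mitochondrial protease, read 13.8 to 14.29 at ZT2 and 12.15 to 12.72 at ZT6, a difference of -1.51 (SE 0.21; adjusted p = 0.000592). Ethe1, a mitochondrial enzyme of sulfide removal, fell by 1.0 (adjusted p = 0.0396), and Slc30a10, a manganese exporter, fell by 1.26 (adjusted p = 0.0227). Rnd1 fell by 1.48 (adjusted p = 0.00186), and Palld, Mylk and Mical2, proteins of the actin cytoskeleton, fell by 1.40, 1.14 and 0.94 (adjusted p = 0.0205, 0.0231 and 0.0283). Among the higher genes were Serpina6, the corticosteroid-binding globulin (1.03, adjusted p = 0.0359), and Mastl, Esco1, Smc6 and Asf1a, known for mitotic control, sister chromatid cohesion, chromosome maintenance and histone delivery (1.3, 0.98, 0.82 and 0.86; adjusted p = 0.0157, 0.0234, 0.0374 and 0.0369). Of these, Clpx and Rnd1 alone kept their calls in all omissions of a single liver. With the 5 arrays high in Tff3 left out, Clpx stayed called (adjusted p = 0.000804, range 7.81e-05 to 0.034) and none of the other genes of this paragraph did, with adjusted p from 0.108 for Rnd1 (range 0.000156 to 0.108) to 0.574 for Mylk (range 0.00141 to 0.645).

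The 87 features were next placed in the day by their means at all 6 times, as a description. Of the 39 higher features, 31 had their lowest mean at ZT2, and the highest mean fell on ZT6 for 22, on ZT10 for 7, on ZT14 for 8 and on ZT18 for 2. Of the 48 lower features, 26 had their highest mean at ZT2 and 16 at ZT22, and 22 had their lowest mean at ZT6, 21 at ZT10 and 5 at ZT14. The difference covered a median of 81.0% of a called feature's range of means over the day. These features were selected by that same difference, which favours a large share and extremes at ZT2 and ZT6. The share over all features was not computed, so these values say nothing of the weight of this step in the day. The mean of Dbp went from 7.4 at ZT2 through 13.66 (ZT6) to 16 (ZT10), and was 13.29 and 11.13 in the dark at ZT14 and ZT18 and 7.87 at ZT22. Nr1d1 had its highest mean at ZT6, with 12.0 against 10.28 at ZT10 and 5.4 at ZT22, and Upp2 reached 15.87 at ZT6 and 16.68 at ZT10. Ank3 was highest at ZT6 (8.75) and was 7.52 at ZT10 and 6.87 at ZT14.

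**Figure D4:**
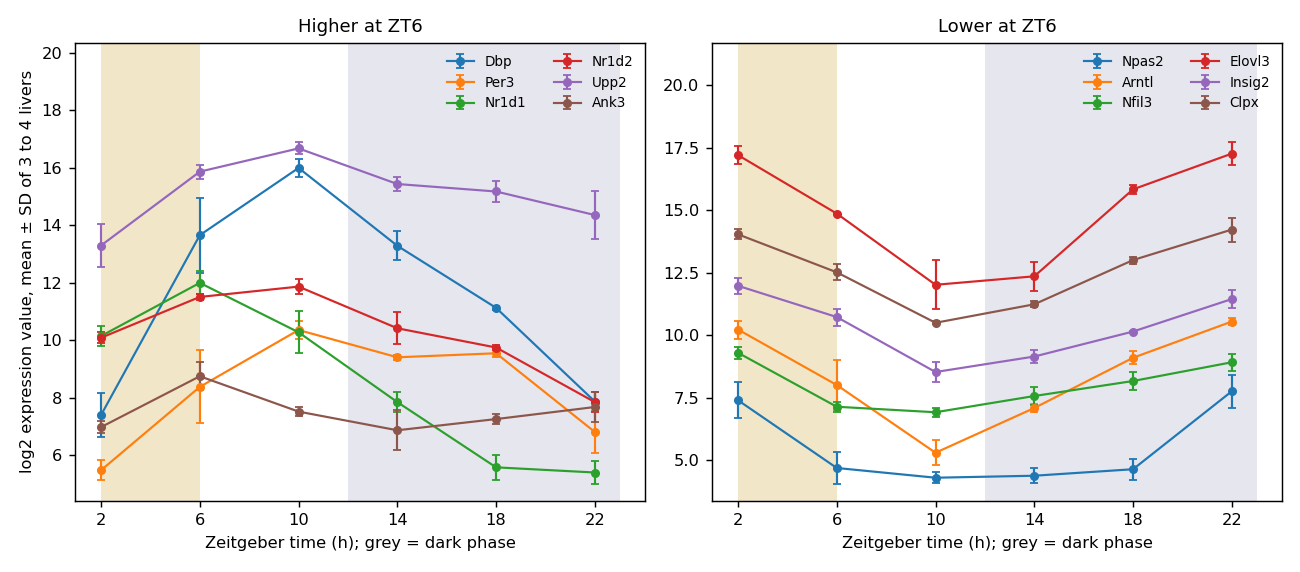
Mean log2 expression value with its SD over 3 to 4 livers (vertical axis) against zeitgeber time in hours (horizontal axis) for 6 genes higher at ZT6 and 6 genes lower at ZT6. The interval from ZT2 to ZT6 is shaded yellow and the dark phase grey. Nr1d1 and Ank3 are highest at ZT6, Dbp and Per3 at ZT10, and Arntl, Elovl3, Insig2 and Clpx are lowest at ZT10.

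Whether the step from ZT2 to ZT6 differed from the step that follows it was tested directly. The next step, ZT10 minus ZT6, had 142 called features (0.639%), and it shares the ZT6 livers with the comparison here. The ZT6 mean enters these steps with opposite signs, so a shift of the ZT6 livers alone also makes the steps differ. All 3 features that passed had been called by ZT6 minus ZT2, a term of the contrast. The difference of the steps passed the test in 3 features (0.0135%; 2268 at an unadjusted p under 0.05): Nr1d1, Schip1 and a feature with no symbol. Nr1d1 rose by 1.85 to ZT6 and then differed by -1.72 from ZT6 to ZT10 (adjusted p = 0.00662), and the difference of the steps was 3.56 (adjusted p = 0.0184). Schip1, at levels near background, fell by 1.25 and then rose by 1.23, with a difference of -2.48 (adjusted p = 0.0214). The fall of Schip1 to ZT6 was not called without the 5 arrays (adjusted p = 0.132, range 0.00703 to 0.154). The feature with no symbol fell by 1.66 and then rose by 2.32, with a difference of -3.98 (adjusted p = 2.66e-05). A called feature with no symbol and this same fall was lower in the arrays high in Tff3 than in the other arrays of their times. The part of these livers in the result was not tested. For Arntl, Elovl3, Clpx and Insig2 the next step was of the same sign and called: -2.71 (adjusted p = 2.04e-05), -2.86 (0.000109), -2.02 (9.29e-06) and -2.21 (9.85e-06). For Npas2 and Nfil3 it was -0.39 (adjusted p = 0.745) and -0.22 (0.783), and their differences of the steps, -2.33 and -1.94, were not called (adjusted p = 0.205 and 0.0775). This count was 89 without ZT6a, 14 without ZT6c, 5 without ZT2b, 19 without ZT6b and ZT6c, and 5 without the 5 arrays high in Tff3.

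The same 4 h were set against the interval 12 h later, ZT14 to ZT18, in the dark, which shares no liver with them. This contrast was chosen after the data were seen. The genes given here had been called by ZT6 minus ZT2, which is a term of the contrast. Their adjusted p therefore restates that call in part. The steps differed in 216 features (0.973%). Dbp had the step of 6.26 in the light, while its mean went from 13.29 at ZT14 to 11.13 at ZT18, and the difference between the intervals was 8.42 (SE 0.60; adjusted p = 9.84e-09). For Elovl3, with means of 12.36 at ZT14 and 15.84 at ZT18, it was -5.82 (SE 0.53; adjusted p = 6.12e-07), and for Arntl it was -4.24 (adjusted p = 5.87e-06). For Cyp7a1, whose means were 16.13 and 16.52, the difference between the intervals was 1.57 and did not pass (adjusted p = 0.219). Ank3 (1.39, adjusted p = 0.138) and Gprin3 (1.03, 0.305) did not pass either. The count was 383 without ZT6a, 116 without ZT6b and 98 without the 5 arrays high in Tff3.

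Across 52 gene lists with 599 measured genes, 19 genes were called. The clock lists held 15 of these among 41 genes, and the 558 genes of the other lists that are in no clock list held 4: Cyp7a1, Acacb, Stbd1 and Stat5b. The share called over all features was 0.392%. Elovl3, Insig2 and Wee1, counted here with the clock lists, each stand in 1 further list outside them. A total of 38 lists had no call. No gene of gluconeogenesis (11 measured, median 0.07), of fatty acid oxidation (17, median -0.06), of the unfolded protein response (18, median -0.12), of the ribosome (20, median -0.09) or of the respiratory chain (23, median -0.12) was called. Insig2 was the only call among 20 genes of cholesterol synthesis and uptake, whose median was 0.11, and the enzymes of that pathway differed by -0.22 (Cyp51) to 0.30 (Lss). Among 14 genes of adiponectin receptors and AMPK the lowest adjusted p was 0.547, for Adipor2 (-0.44). The widest median among lists of metabolism was that of fatty acid synthesis, followed by hepcidin, heme and iron (16 genes, median 0.48, lowest adjusted p = 0.353). Of 15 male-biased liver genes 14 had a negative difference (median -0.42), and Elovl3 was the only call. A median away from 0.0 in a list without calls is a description and was given no test.

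**Figure D5:**
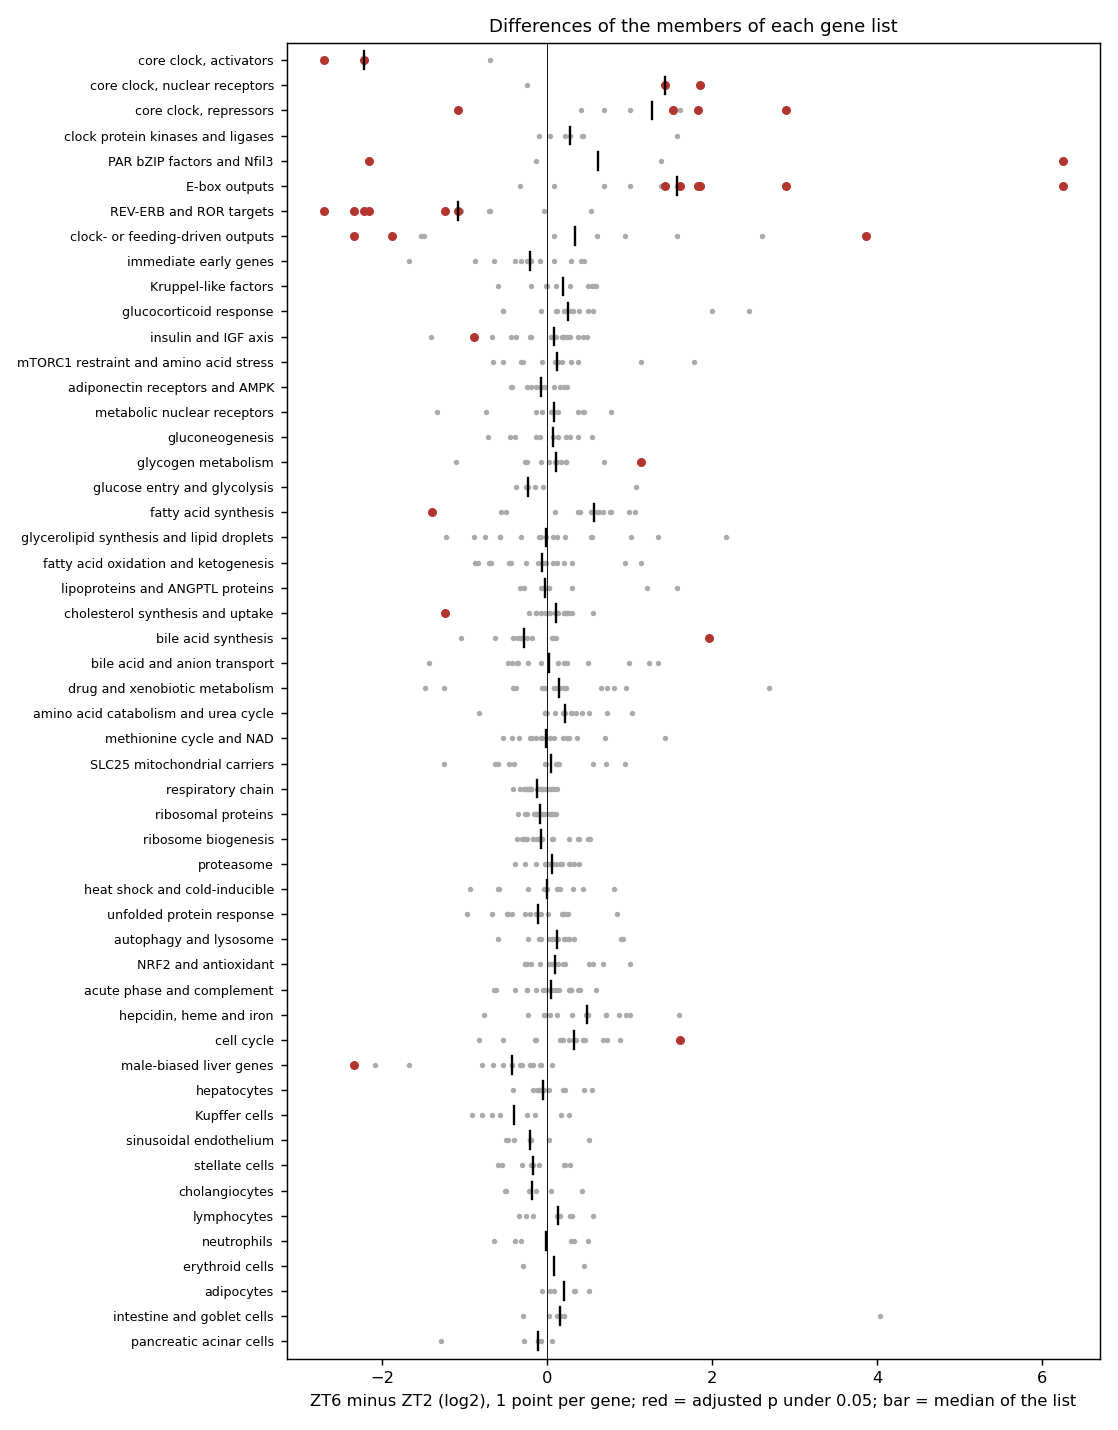
Difference between ZT6 and ZT2 (log2, horizontal axis) of each measured member of 52 gene lists, 1 point per gene, with called genes in red and a bar at the median of the list. Most red points are in the clock lists at the top, and 7 further lists hold 1 each, of which Insig2, Wee1 and Elovl3 are also in clock lists.

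Some uncalled genes of these lists differed between the livers of ZT6. Mt1, a metallothionein, read 10.53, 13.17 and 15.3 in ZT6a, ZT6b and ZT6c and 9.92 to 11.6 at ZT2 (difference 2.45, adjusted p = 0.182). Angptl8, a hormone-like regulator of lipoprotein lipase, read 9.96, 11.71 and 12.53 against 9.58 to 10.23 (1.58, adjusted p = 0.404). Cyp1a2, a drug-metabolising oxidase, read 17.53, 15.02 and 16.19 against 17.23 to 17.89 (-1.25, adjusted p = 0.22). In these 3 genes ZT6a lay within the ZT2 range and ZT6b and ZT6c outside it. Without ZT6a, Mt1 and Cyp1a2 were called (adjusted p = 0.00425, range 0.00425 to 0.996, and 0.0126, range 0.0126 to 0.992), as was Fgf21 (0.0158, range 0.0158 to 0.789), a hormone at background levels of 3.33 to 3.82 at ZT2 and 3.97, 5.2 and 4.9 at ZT6.

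Among the called features, 13 of 87 (14.9%) set all arrays high in Tff3 apart from the other arrays of the same times, against 8.4% of all features. Noct, Abcd2, Ank3, Rnf145, B4galt5, Ncam2 and Zfp36l1 were higher in the arrays high in Tff3, and Slc34a2, Palld and Mylk were lower. The others had no symbol, with ZT6 minus ZT2 of 1.04 and 1.36 (higher in these arrays) and -1.66 (lower in them). ZT6b and ZT6c both lay farther from the ZT2 mean than ZT6a in 29 of the 87, and ZT6a lay farther than both in 29. Over all features the shares were 35.5% and 31.6%, so these counts say nothing particular of the called features. The share of the livers high in Tff3 in the differences of these genes was not tested. Of the 10 called core clock and PAR bZIP genes, ZT6a was farthest from the ZT2 mean in 5 and ZT6b in 5, and ZT6c was nearest to it in 7.

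Of 81 measured marker genes of liver and other cell types, 0 were called. With 0.392% of all features called, a list of this size may well hold no call, so the count says nothing particular of the markers. Hepatocyte markers were high at both times, with Alb at 19.77 and 19.67 and Ttr at 19.62 and 19.52 for the means of ZT2 and ZT6. The summed level of 12 hepatocyte markers was 22.5 to 22.6 at ZT2 and 22.4 to 22.6 at ZT6. Of 8 Kupffer cell markers 6 had a negative difference, with a list median of -0.41, the lowest being Vsig4 (-0.91, adjusted p = 0.227) and Csf1r (-0.79, adjusted p = 0.259). The lowest adjusted p of the Kupffer list was 0.203. In 2 of the 8 the ZT6 values lay wholly below the ZT2 values and in 0 wholly above, beside 3.76% and 3.94% of all features. Their summed level was 10.7 to 11.3 at ZT2 and 10.4 to 10.8 at ZT6, so the sums overlapped. Sinusoidal endothelium markers summed to 13.0 to 13.6 and 12.9 to 13.2. Of the 8 measured intestinal markers, Muc2, Reg3g, Agr2 and Cdx2 lay near background at both times, with means of 3.02 to 3.54 at ZT2 and 3.18 to 3.66 at ZT6. Fabp2 had means of 11.62 and 11.82, Spink4 of 7.1 and 7.25, and Vil1 of 5.46 and 5.16, and their groups overlapped, as those of Tff3 did. The summed level of the 8 was 11.4 to 12.3 at ZT2 and 12.1 to 12.6 at ZT6.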

How the data were processed

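RNA of 22 livers was extracted with TRIzol, and 100 ng each was amplified with the WT Plus kit and hybridised to Clariom S arrays, per the labels' protocols. The deposited table holds log2 values for 22206 features, 1 column per array. How the authors summarized and normalized them, with which software and build, is not given in the sources used here. Nor is the base of the logarithm: it was read as 2, and every fold rests on that reading. Arrays have no read depth, and their number limits the precision. Probe annotation gave 19572 features 1 gene symbol and 2634 none.

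Groups are the times in the labels, which state 3 to 4 mice per time. Nothing more ties arrays to mice, so a p-value reflects the spread among these arrays, which may be technical. A model of the 6 time means was fitted to all arrays (lmFit and eBayes of limma 3.58.1 in R 4.3.3; 16 residual degrees of freedom), with two-sided tests, Benjamini-Hochberg adjustment over all features and a threshold of 0.05. An exact two-sided permutation test of 3 against 4 livers cannot go below p = 0.0571, so it was not used. The code was tested on simulated data. Differences carry limma's SE. Tables and figures used Python 3.11.15 with pandas 2.3.3 and matplotlib 3.10.9.

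The comparison, the gene lists and the rule for named genes were chosen with earlier results of these data known. The rule took the 12 largest called differences in each direction, without predicted genes, all core clock and PAR bZIP genes, up to 3 called members of each other list (or, with none, the member of lowest adjusted p), called differences between steps, Adipoq and Tff3, 78 genes in all. A gene with several features is shown by the brightest. Near-identical genes may share probes. The summed level of a marker list is the log2 of the sum of its members' linear values.

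Alternatives were quantile normalization, centring, a filter on dim features, a trend and robust prior, array weights, the 7 arrays alone, the replicate letter as a block, a stricter threshold, a 1.5-fold minimum, single arrays left out, and the arrays high in Tff3 left out. The letters were not taken to pair the livers. Deviations of same-letter arrays of ZT2 and ZT6 correlated at 0.0166, -0.0124 and 0.0126, and those of different letters at -0.0253 to 0.036. With so few arrays these values do not decide what the letters mean.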

Additional observations from a re-analysis of the deposited data

Results flagged for a closer look

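In 4 of the 78 named genes 1 ZT2 liver stood apart from the other 3 by Dixon's criterion, which chance meets in about 1 of 20 groups. Arntl read 10.77 in ZT2c and 10.01 to 10.1 in the others, and Gprin3 read 9.01 in ZT2c and 7.62 to 7.82 in the others. Ppara, the nuclear receptor of fatty acid oxidation, read 12.25 in ZT2c and 11.31 to 11.41 in the others. Hmox1, heme oxygenase, read 8.76 in ZT2d and 9.3 to 9.32 in the others. Of these genes Arntl and Gprin3 were called, and without ZT2c Arntl and Gprin3 stayed called.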

How the results depend on the processing

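The count of 87 moved by less than 1.5 times under quantile normalization, centring and the filter on dim features. The same held for the trend and robust prior and the 1.5-fold minimum. Of the 32 named genes that were called, 0 changed sign under any alternative. The uncalled Tff3 did where ZT6b and ZT6c were left out, as ZT6a read 2.49 against 3.57 to 4.64 at ZT2. Array weights gave 43 calls (20 higher, 23 lower), the 7 arrays alone 17 (8 higher, 9 lower; 16 of them among the 87), and a threshold of 0.01 gave 19 (7 higher, 12 lower). Leaving out the 5 arrays high in Tff3 gave 50 (22 lower), and leaving out ZT6b and ZT6c alone gave 46 (25 higher, 21 lower). Single arrays left out gave 29 to 117 calls, 10 to 59 higher and 19 to 58 lower. The replicate letter as a block gave 69 calls, 66 of them among the 87, and the letters were not taken to pair the livers. The count of features whose step differed from the next was 7 with the trend and robust prior, 1 with array weights, 7 with the replicate block, 5 and 19 without the 5 arrays and without ZT6b and ZT6c, 1 at a threshold of 0.01, and 3 to 89 with single arrays left out. Against the interval 12 h later it was 357 with the filter on dim features, 342 with array weights, 98 and 105 without the 5 arrays and without ZT6b and ZT6c, 57 at a threshold of 0.01, and 116 to 383 with single arrays left out. Fewer samples, fewer features or a stricter threshold are part of the construction of these settings except the weights, the prior and the block, for which the cause was not tested. The step comparisons could not be fitted with the 7 arrays alone, which hold neither ZT10 nor ZT14. Of the 32 named genes that were called, Dbp, Nfil3, Npas2, Per3, Upp2, Wee1 and Pnrc1 had adjusted p under 0.05 in every alternative, and 12 kept it in all omissions of a single array. The precision is limited by 3 and 4 livers per group, and levels near the lower quartile cannot be told from background.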

Other observations

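A pair of small pathways not described above held several called genes. They were written down as lists after the values were seen, so their counts are a description with no test. Of 9 measured genes that build or remodel glycosphingolipids, 3 were higher at ZT6 and 0 lower, beside 0.176% and 0.216% of all features, with a median of 0.36. Ugcg, which makes glucosylceramide, read 8.06 to 8.6 at ZT2 and 9.23, 9.7 and 9.33 at ZT6 (difference 1.10, SE 0.24, adjusted p = 0.0371). B4galt5, which adds the next sugar to give lactosylceramide, read 8.02 to 9.02 at ZT2 and 9.36, 10.43 and 10.06 at ZT6 (1.51, SE 0.32, adjusted p = 0.0298). St3gal5, the GM3 synthase that follows it, read 11.01 to 11.96 at ZT2 and 12.78, 12.63 and 13.0 at ZT6 (1.18, SE 0.23, adjusted p = 0.0205). These 3 are consecutive steps, and in each gene the ZT6 livers lay above all ZT2 livers. The paralog B4galt6 differed by -0.06 (adjusted p = 0.968). The calls were lost in 6 omissions for Ugcg (all but ZT6a), in 5 for B4galt5 (ZT2b, ZT2c, ZT2d, ZT6b and ZT6c) and in 3 for St3gal5 (ZT2a, ZT6b and ZT6c), and without the 5 arrays high in Tff3 adjusted p was 0.294, 0.32 and 0.17. Over all alternatives it ran from 0.0201 to 0.358, from 0.0158 to 0.498 and from 0.00522 to 0.199.

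Of 14 measured genes of nucleoside salvage and breakdown, 1 was higher (Upp2) and 2 were lower, beside the same shares, with a median of -0.25. Pnp, the purine nucleoside phosphorylase, read 11.02 to 11.8 at ZT2 and 10.11, 9.98 and 10.58 at ZT6 (difference -1.29, SE 0.20, adjusted p = 0.00186). Its near-identical neighbour Pnp2 read 10.98 to 11.52 and 9.62 to 10.39 (-1.29, adjusted p = 0.0102), and the features of the pair may share signal. Upp1, the other uridine phosphorylase, lay near background (0.05, adjusted p = 0.968), and Dpys, Dpyd and Upb1, which break pyrimidines down further, were not called (-0.75, -0.06 and 0.22; adjusted p = 0.405, 0.951 and 0.723). Without ZT6b the call of Pnp2 was lost. Without the 5 arrays the adjusted p was 0.0515 for Pnp and 0.0712 for Pnp2, within ranges of 0.000451 to 0.106 and 0.00261 to 0.113.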
